A study of Mus musculus with 40 samples.

Results

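The microglia-high and microglia-low gliomas were 6 and 6 of the 22 gliomas in a set of 40 mouse samples, each profiled on 1 Affymetrix Mouse Genome 430 2.0 array. They were chosen by measured values: the 22 gliomas were ordered by a score, the mean log2 signal of Ctss, C1qb and Csf1r, and the 6 highest and 6 lowest were set against each other. All gliomas came from p53 conditional knockout (CKO) mice on a mixed background of C57Bl6 and another inbred strain, in which Cre recombinase was driven by the human GFAP promoter (hGFAP-cre), so the alleles were recombined in the neural lineage, from which microglia do not arise. The microglia-high side held 4 p53null CKO gliomas (hGFAP-cre+;p53floxE2-10/floxE2-10) and 2 p53R172H CKO gliomas (hGFAP-cre+;p53LSLR172H/floxE2-10), and the microglia-low side held 3 p53null and 3 p53R172H CKO gliomas. Between the sides lay 4 p53null and 6 p53R172H gliomas. The other samples used here were 11 cell lines derived from p53R172H CKO gliomas and 5 normal cortices, of which 3 were hGFAP-cre+;p53floxE2-10/+ and 2 were hGFAP-cre-;p53floxE5-6/floxE5-6. The authors describe each p53R172H glioma as paired with a line derived from it, so these lines and gliomas are not independent samples. A further 2 lines from early biopsies were not compared. RNA was taken from whole tumor tissue, so each glioma array reads tumor cells, immune cells, vessels and enclosed brain together.

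Microglia are the resident macrophages of the brain. They settle there before birth, depend on signalling through the receptor Csf1r, and in the undisturbed brain express a characteristic set of surface receptors, among them the purinergic receptor P2ry12 and the fractalkine receptor Cx3cr1. In gliomas they mix with monocyte-derived macrophages from the blood, which share many genes with them, and together these cells can form a large share of the tumor mass. Ctss encodes the lysosomal protease cathepsin S, and C1qb a chain of C1q, the recognition protein of the classical complement pathway.

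The score averaged 12.13 ± 0.29 in microglia-high gliomas and 10.54 ± 0.38 in microglia-low gliomas (SD, n = 6 each), and it lay between 11.15 and 11.66 in the 10 gliomas between them. The lowest glioma inside the microglia-high side stood at 11.82 and the nearest glioma outside it at 11.66. The highest glioma inside the microglia-low side stood at 10.93 and the nearest outside it at 11.15. The score therefore formed a graded series, and neither boundary fell in a wide gap. Csf1r ranged between 11.11 and 12.08 in microglia-high gliomas and between 9.003 and 10.25 in microglia-low gliomas. C1qb ranged between 11.35 and 12.28 on the high side and between 9.71 and 10.69 on the low side, and Ctss between 12.74 and 13.40 against 11.15 and 12.001. These 3 genes chose the sides, so their separation is a description and they enter no result below. In cortex the score was 10.34 to 10.82, close to that of the microglia-low gliomas, and in the cell lines, which were grown without brain tissue, it was 3.69 to 5.41. The closeness of cortex to the low side averages opposite differences. Cortex Csf1r, at 10.76 to 11.34, lay above every microglia-low glioma, and cortex C1qb, at 9.06 to 9.42, lay below every one. Cortex Ctss, at 11.01 to 11.86, overlapped them.

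**Figure D1:**
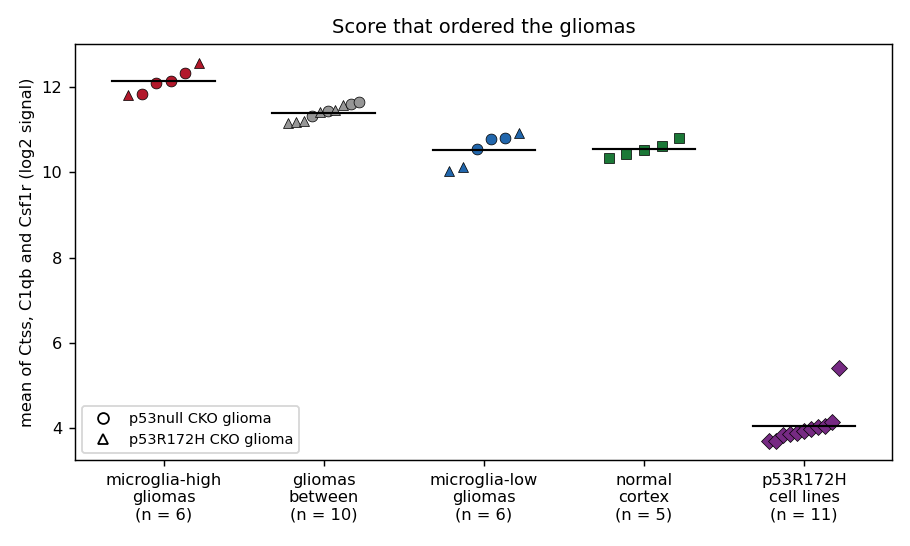
Score (mean log2 signal of Ctss, C1qb and Csf1r, y axis) of each sample by group, with 1 point per array, bars at the means, and circles and triangles for p53null CKO and p53R172H CKO gliomas. The 6 microglia-high gliomas lie between 11.82 and 12.57 and the 6 microglia-low gliomas between 10.02 and 10.93, and every cell line lies below every glioma and cortex.

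The deposited log2 signals had been quantile normalized, so a difference of 1 is a 2-fold difference in signal relative to the rest of the array. Arrays correlated over all genes at 0.881 to 0.979 within the microglia-high side, 0.898 to 0.969 within the microglia-low side and 0.877 to 0.968 across the sides. The 3'-to-5' signal difference of Actb, a measure of RNA integrity, was 0.20 to 0.69 in microglia-high gliomas and 0.24 to 0.61 in microglia-low gliomas. That of Gapdh was -0.04 to 0.31 in microglia-high gliomas and -0.09 to 0.26 in microglia-low gliomas. Because tissue RNA was measured in bulk, fewer cells of a type and less RNA per cell cannot be told apart in anything that follows. The labels tie no array to an animal or a processing batch, so each p-value refers to the spread among these arrays, which may in part be technical.

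Of 18190 genes tested without the score genes, 70 were called higher in microglia-high gliomas (0.385%) and 4 were called lower (0.022%) at an adjusted p under 0.05 in limma. Of the 70, 63 differed at least 2-fold, and of the 4, 2 did. The sides were picked on 3 genes of the same arrays, so each call speaks of a gene that moved with that score, and for myeloid genes, which are read from the same cells as the score genes, a call or a count of calls is given only as a description and supports nothing. Where no member of a list was called, the number at an unadjusted p under 0.05 is given, a level that 2719 of the 18190 genes reached (14.9%). All signals of the microglia-high gliomas lay above all those of the microglia-low gliomas for 121 genes (0.665%), and below them for 32 genes (0.176%). The sides did not overlap for 56 of the 70 genes called higher and for 3 of the 4 called lower. Of the 70, 63 had a mean signal in the cell lines below that of the microglia-low gliomas, and for 28 all 11 lines lay below all 6 of those gliomas. In the 10 gliomas between the sides, 68 of the 70 had an intermediate mean. These gliomas have an intermediate score by definition, so for genes that moved with the score this was largely fixed in advance. The cortex mean lay between the means of the sides for 42 of the 70, below the microglia-low mean for 20 and above the microglia-high mean for 8. The counts in cell lines and cortex are descriptions, since the share over all genes was not taken for them. For 33 of the 70 the microglia-low mean lay under 5.39, the median of all probe sets, where array signals flatten, so their differences may understate the true ones. The count of calls changed with single arrays. It was 38 higher and 1 lower without array 50, 39 and 0 without array 42 and also without array 60, 42 and 0 without array 54, 156 and 61 without array 44, 132 and 26 without array 62, and 122 and 28 without array 64.

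Most genes of homeostatic microglia, the state of these cells in undisturbed brain, were higher in the microglia-high gliomas. All 13 measured members had a positive difference, with a median of 1.77 on the log2 scale against 0.0022 over all genes, and 9 of the 13 were called. Since they are read from the same cells as the score, that count is given beside the 0.385% over all genes as a description. Tmem119, a membrane protein used to tell microglia from blood-derived macrophages, had signals of 7.83, 8.62 and 9.26 (lowest, median and highest) in microglia-high gliomas and 5.07, 6.30 and 7.13 in microglia-low gliomas. Every microglia-high glioma lay above every microglia-low glioma, and the difference was 2.38 ± 0.35 (SE). The purinergic receptor P2ry12 had 6.95, 8.47 and 9.23 on the high side and 3.78, 5.69 and 6.996 on the low side, a difference of 2.69 ± 0.49. Here the sides touched, since the highest microglia-low glioma stood above the lowest microglia-high glioma. Cortex reached 7.86 to 9.10 for this gene, so the median microglia-high glioma lay within the range of normal brain and every microglia-low glioma lay below it.

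The fractalkine receptor Cx3cr1 had signals of 9.05, 9.43 and 9.77 in microglia-high gliomas and 7.35, 7.71 and 8.14 in microglia-low gliomas, a difference of 1.73 ± 0.18 without overlap. Cortex, at 8.63 to 9.27, fell in the gap and at the lower end of the microglia-high gliomas, and the cell lines stood at 4.16 to 5.73. Gpr34, a receptor for lysophosphatidylserine, had 6.57, 7.24 and 9.23 on the high side and 3.38, 5.001 and 6.51 on the low side. Its difference was 2.55 ± 0.54, again without overlap, and the cell lines lay at 2.91 to 3.34. The sialic acid-binding lectin Siglech had 6.10, 7.22 and 7.81 in microglia-high gliomas and 4.31, 4.85 and 5.60 in microglia-low gliomas, and the ADP receptor P2ry13 had 7.07, 7.32 and 8.10 against 5.23, 5.85 and 6.15. Neither pair overlapped, and the differences were 2.07 and 1.63.

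Of the remaining members, Selplg and Ltc4s are described with the called genes. Olfml3, a secreted matrix protein made by microglia in the mouse brain, had signals of 8.86, 9.92 and 10.07 in microglia-high gliomas and 6.63, 8.05 and 9.25 in microglia-low gliomas, which overlapped. Fcrls, an Fc receptor-like molecule, had 8.64, 9.17 and 10.41 against 6.49, 8.09 and 8.96, also with overlap. Crybb1, a crystallin that marks mouse microglia, had 5.501, 6.09 and 7.78 on the high side and 4.89, 5.13 and 5.48 on the low side, which did not overlap. The 3 differences were 1.77, 1.47 and 1.23, of which that of Olfml3 was called. Sall1, a zinc-finger factor needed for microglial identity, had 7.07, 8.41 and 9.23 in microglia-high gliomas and 7.08, 8.30 and 8.73 in microglia-low gliomas, a difference of 0.21 that became -0.28 without arrays 36, 41 and 50. It averaged 8.76 in the cell lines, above both sides. The hexose transporter Slc2a5 had 3.83, 4.31 and 4.66 on the high side and 4.04, 4.28 and 4.51 on the low side, all below the median of the probe sets. Its difference of 0.03 changed sign in several settings.

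**Figure D2:**
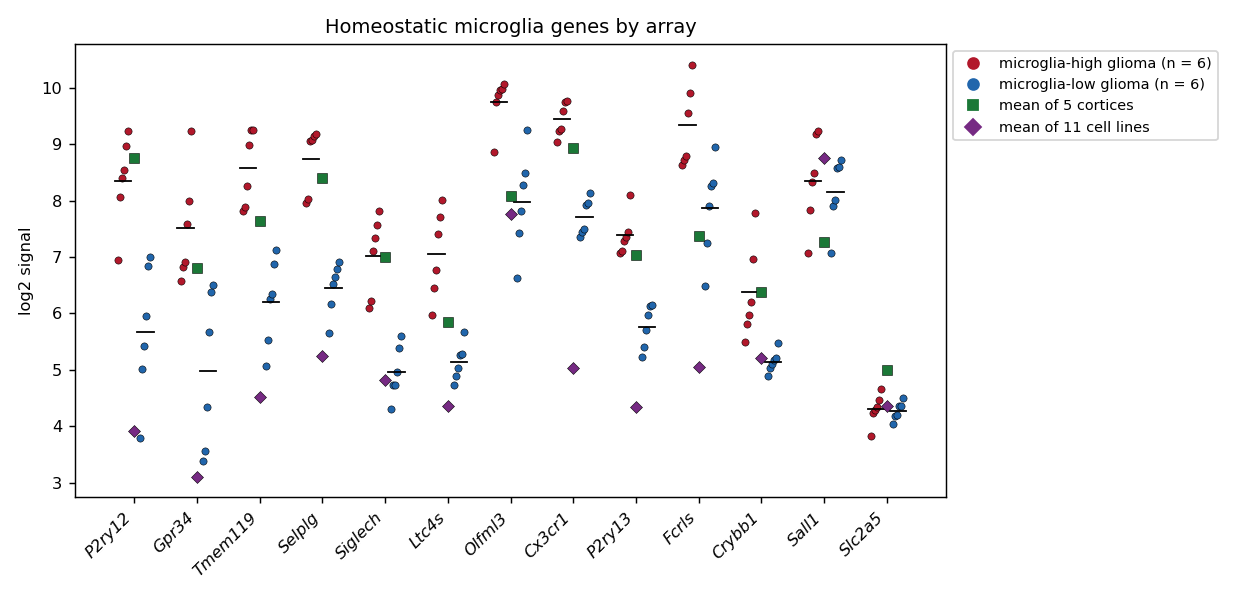
Log2 signal (y axis) of the homeostatic microglia genes in each microglia-high and microglia-low glioma, with 1 point per array, bars at the means, and squares and diamonds at the means of cortex and cell lines. Tmem119, Gpr34, Cx3cr1, Siglech and P2ry13 show no overlap of the sides, P2ry12, Olfml3 and Fcrls overlap at the edge, and Sall1 and Slc2a5 overlap throughout.

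Most of these markers moved with the score that gave the label, which is a description, since they are read from the same cells. Markers of monocytes and of blood-derived or border macrophages had a median difference near 0. Of 14 such genes, 6 had a positive difference, the median was -0.02 and none was called, with 2 past an unadjusted p of 0.05 in limma. Ms4a7, a membrane protein of border and tumor macrophages, had signals of 4.496, 8.31 and 9.70 in microglia-high gliomas and 8.19, 9.25 and 9.76 in microglia-low gliomas. The difference was -1.40, and the lowest value by a wide margin belonged to a microglia-high glioma. Lyz2, the lysozyme of macrophages and monocytes, had 8.78, 10.83 and 11.76 against 10.63, 11.84 and 12.67, a difference of -1.19 with overlap. Itga4, an integrin chain that marks blood-derived cells in mouse gliomas, differed by -0.87 on its brightest probe set. The other Itga4 probe sets, all dimmer, differed by -0.33 to 0.26. Other members differed the opposite way, and the largest of these, picked out after their values were seen, were larger than any negative one. Gda, a guanine deaminase also abundant in neurons, had 5.15, 8.23 and 11.39 in microglia-high gliomas and 5.11, 5.57 and 6.39 in microglia-low gliomas, a difference of 2.64 with overlap, and its cortex signals reached 10.89 to 11.999. Plac8, a protein of monocytes and other blood cells, had 5.39, 8.73 and 10.82 against 4.93, 6.91 and 7.71, a difference of 1.79 with overlap. The level of the whole list in an array, taken as the median over its genes of the log2 difference from the cortex mean, was -0.37, -0.32 and 1.81 in microglia-high gliomas and -0.28, -0.01 and 0.56 in microglia-low gliomas. The value of 1.81 belonged to array 45, and without arrays 45 and 48 the list median was -0.66. Over the homeostatic list the same measure was 0.08, 0.54 and 1.07 in microglia-high gliomas and -1.45, -1.13 and -0.64 in microglia-low gliomas, so every microglia-high glioma stood above the cortex mean and every microglia-low glioma below it. Single cortices ranged between -0.18 and 0.16, which held the microglia-high gliomas of arrays 35 and 45, at 0.08 and 0.12. The gliomas between the sides ranged between -0.88 and 0.46. The highest of these, array 58, stood above the microglia-high gliomas of arrays 35, 45 and 64.

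The 10 genes with the largest differences among those called without overlap included Gpr34, Tmem119 and Siglech, described above, and 7 more. The adaptor Blnk, which links antigen and immune receptors to Syk signalling, had signals of 6.93, 8.12 and 8.81 in microglia-high gliomas and 4.36, 5.85 and 6.23 in microglia-low gliomas, a difference of 2.34. Selplg, the selectin ligand PSGL-1 of leukocytes and also on the homeostatic list, had 7.97, 9.07 and 9.18 against 5.66, 6.58 and 6.92, and Gpr84, a receptor for medium-chain fatty acids on myeloid cells, had 5.60, 6.52 and 7.61 against 3.59, 4.35 and 5.04. Their differences were 2.30 and 2.24. Ly86, the partner of the toll-like receptor homologue Cd180, had 10.30, 11.26 and 12.01 in microglia-high gliomas and 7.96, 9.08 and 9.90 in microglia-low gliomas, a difference of 2.13. For each of these 4 genes the dimmest microglia-high glioma was still brighter than the brightest microglia-low glioma.

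Ncf1, a cytosolic subunit of the phagocyte NADPH oxidase, had signals of 7.70, 8.59 and 9.18 in microglia-high gliomas and 6.05, 6.60 and 7.11 in microglia-low gliomas, a difference of 1.94. Kcnk6, a potassium leak channel, had 6.86, 7.38 and 8.22 against 4.98, 5.25 and 6.06. Rassf5, which carries signals of Ras-like GTPases to integrins in lymphocytes, had 6.20, 7.39 and 8.78 against 5.18, 5.27 and 6.04, and its cortex signals of 8.26 to 8.68 were above most microglia-high gliomas. Ltc4s, the synthase of leukotriene C4 and a member of the homeostatic list, was called too, with 5.97, 7.09 and 8.02 on the high side and 4.74, 5.15 and 5.66 on the low side. The sides stood apart for Kcnk6, Rassf5 and Ltc4s, with differences of 2.07, 1.98 and 1.91.

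**Figure D3:**
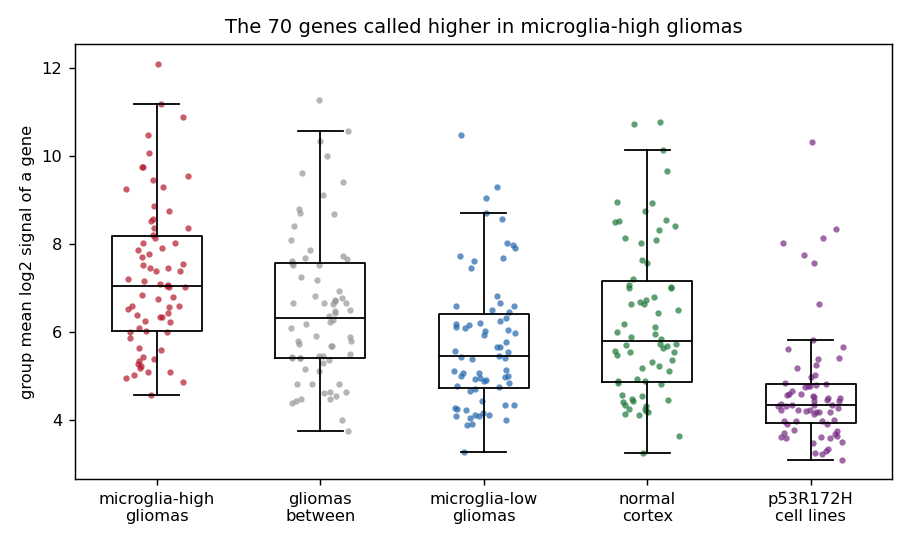
Mean log2 signal (y axis) of the 70 genes called higher in microglia-high gliomas, by sample group, with 1 point per gene. Boxes span the quartiles with a line at the median, and whiskers cover the genes that do not lie far out. For 68 of the 70 the gliomas between the sides, which have an intermediate score by definition, have an intermediate mean. For 63 the mean of the cell lines lies below that of the microglia-low gliomas, a description, since the share over all genes was not taken.

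Many genes of the myeloid lineage are switched on by the factor PU.1, the product of Spi1, which binds DNA at sites with the core GAGGAA. The promoters of the called genes were therefore searched for these letters on both strands, in the 250 bases before and the 50 bases after each gene's start. RefSeq promoters on GRCm38.p6 were at hand for 58 of the 74 called genes. The core was present in 28 of 55 promoters of genes called higher (50.9%) and in 0 of 3 of genes called lower, against 3883 of 14366 promoters of tested genes (27.0%) and 7652 of 27025 of all promoters (28.3%). The sides were chosen by 3 myeloid genes, so many myeloid genes among those called were likely beforehand. The higher share is therefore only a description and supports no regulator. A match of 6 letters is a description of the sequence and does not show binding. The 4 promoters below belong to the genes called higher with the largest differences among those that hold the core, and are shown to give its place relative to the start. Capitals mark the core, as GAGGAA or, on the other strand, as TTCCTC. Itgam, the integrin chain CD11b, holds 3 copies in chr7:128062390-128062689 (+ strand). Siglech holds 1 in chr7:55767934-55768233 (+ strand), Rassf5 1 in chr1:131200136-131200435 (- strand) and Ltc4s 1 in chr11:50238483-50238782 (- strand).
Itgam: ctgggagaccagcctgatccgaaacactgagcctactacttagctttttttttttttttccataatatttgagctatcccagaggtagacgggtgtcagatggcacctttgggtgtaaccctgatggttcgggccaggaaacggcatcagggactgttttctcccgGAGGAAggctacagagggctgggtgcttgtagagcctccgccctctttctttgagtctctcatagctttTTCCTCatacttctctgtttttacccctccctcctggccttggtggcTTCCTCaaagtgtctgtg
Siglech: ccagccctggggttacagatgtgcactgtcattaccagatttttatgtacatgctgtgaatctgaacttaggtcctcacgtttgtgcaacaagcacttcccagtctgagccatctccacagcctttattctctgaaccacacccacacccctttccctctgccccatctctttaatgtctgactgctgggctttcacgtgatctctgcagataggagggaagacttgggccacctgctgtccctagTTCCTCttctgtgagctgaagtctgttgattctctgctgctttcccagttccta
Rassf5: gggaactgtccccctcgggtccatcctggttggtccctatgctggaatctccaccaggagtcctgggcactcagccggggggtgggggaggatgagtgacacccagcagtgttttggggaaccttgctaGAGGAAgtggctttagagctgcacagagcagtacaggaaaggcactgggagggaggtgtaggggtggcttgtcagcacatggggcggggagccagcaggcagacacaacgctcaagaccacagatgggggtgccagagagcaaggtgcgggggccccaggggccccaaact
Ltc4s: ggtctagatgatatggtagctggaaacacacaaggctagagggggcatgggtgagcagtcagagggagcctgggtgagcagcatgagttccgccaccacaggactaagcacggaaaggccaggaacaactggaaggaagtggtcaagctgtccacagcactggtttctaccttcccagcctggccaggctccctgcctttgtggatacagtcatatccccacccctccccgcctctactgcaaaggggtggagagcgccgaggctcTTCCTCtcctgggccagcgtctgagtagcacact

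Of 9 myeloid transcription factors, 7 had a positive difference, with a median of 0.52, and 2, Ikzf1 and Spi1, were called. Ikzf1, a zinc-finger factor of blood lineages, had signals of 6.72, 7.07 and 7.82 in microglia-high gliomas and 4.82, 5.61 and 5.94 in microglia-low gliomas, a difference of 1.61 without overlap. Mef2c and Irf8, both needed for mature microglia in mice, differed by 1.52 and 1.24 without a call. Spi1 itself, picked out after its values were seen, had 6.60, 7.04 and 7.63 on the high side and 6.01, 6.09 and 6.58 on the low side, a difference of 0.87 with the sides just apart.

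Genes that microglia share with other myeloid cells had a positive difference in 26 of 26 cases, with a median of 1.16 and 5 called. Itgam showed the largest difference, 2.67, with signals of 4.74, 7.25 and 8.43 in microglia-high gliomas and 3.69, 4.45 and 4.85 in microglia-low gliomas, although 1 microglia-high glioma fell among the low ones. The tetraspanin Cd37 had 6.04, 6.59 and 7.23 against 4.13, 4.68 and 5.81, with no overlap. The level of the list relative to cortex was 1.52, 2.18 and 2.67 in microglia-high gliomas and 0.47, 0.89 and 1.30 in microglia-low gliomas. Unlike the homeostatic list, it therefore lay above the cortex mean in every glioma of both sides. Of 10 complement genes, 9 had a positive difference and 2 were called, the remaining chains of C1q. C1qa had 11.55, 12.24 and 12.54 in microglia-high gliomas and 9.80, 10.68 and 10.88 in microglia-low gliomas, and C1qc had 10.35, 10.86 and 11.38 against 8.54, 9.46 and 9.76. The differences were 1.61 and 1.59 without overlap, and C1ra, a protease of the same complex, differed by 1.14 without a call.

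Genes that microglia raise around plaques and lesions, the disease-associated program known from mice, had a median difference of 0.81, with 11 of 13 positive and none called (6 past an unadjusted p of 0.05 in limma). Cst7, which encodes the protease inhibitor cystatin F and is a leading gene of that program, had signals of 7.42, 8.72 and 10.74 in microglia-high gliomas and 4.09, 6.73 and 9.08 in microglia-low gliomas, with wide overlap. The phagocytic receptor Mertk and the cholesterol 25-hydroxylase Ch25h differed by 1.45 and 1.33 without a call. Lysosomal genes, all 21 of which lay above the array median in the cell lines too, had a median difference of 0.55 with none called (7 past an unadjusted p of 0.05). The largest were the cathepsins Ctsh and Ctsl, at 0.74 and 0.69, and the mannosidase Man2b1, at 0.68. That median was 0.21 without arrays 36, 41 and 50 and 0.30 within p53null gliomas.

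Among antigen presentation genes, the class II group had a median difference of 0.50, with 8 of 10 positive and 2 called, and the median was 0.87 without arrays 36, 41 and 50. H2-DMa, part of the complex that loads peptides on class II molecules, was called, with signals of 7.39, 8.05 and 9.17 in microglia-high gliomas and 6.06, 7.02 and 7.41 in microglia-low gliomas, which touched. H2-Oa, an inhibitor of that loading, was called with a difference of 0.85, at signals below the median of the probe sets. The costimulatory molecule Cd86 had 6.43, 7.20 and 7.66 against 4.74, 5.52 and 6.30, a difference of 1.61 without overlap and without a call. All 13 genes of class I presentation had a positive difference, with a median of 1.39 and none called (11 past an unadjusted p of 0.05 in limma). In the cell lines too, 12 of these genes lay above the array median. Nlrc5, the activator of class I genes, differed by 1.99, the immunoproteasome subunit Psmb8 by 1.76 and the peptide transporter Tap1 by 1.69. The class I level relative to cortex was 1.54, 2.57 and 2.94 in microglia-high gliomas and 0.07, 1.05 and 1.91 in microglia-low gliomas. In the cell lines that level was -1.04, -0.09 and 2.75.

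Interferon-response genes were positive in 33 of 33 cases, with a median of 1.42, yet none was called (10 past an unadjusted p of 0.05 in limma). In the cell lines 25 of the 33 lay above the array median too. Irf7, a factor that amplifies type I interferon production, had signals of 8.14, 12.33 and 13.37 in microglia-high gliomas and 6.04, 8.40 and 12.09 in microglia-low gliomas. Its difference of 3.09 ± 1.28 did not pass the test (adjusted p = 0.274 in limma), since gliomas of both sides covered a wide range. Oasl2, an antiviral oligoadenylate synthase-like protein, had 5.52, 10.83 and 11.003 against 4.93, 7.83 and 10.19, and the microglia-high glioma at 5.52 was array 64. Ifi27l2a, which has near-identical neighbours that a probe set may share, differed by 2.03. The level of the list relative to cortex was 1.23, 3.99 and 4.74 in microglia-high gliomas and 0.26, 2.15 and 4.09 in microglia-low gliomas, so the sides overlapped over most of their range. The interferon level of the cell lines was -0.21, 0.15 and 2.62.

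Of 22 chemokines and cytokines, 20 had a positive difference, with a median of 0.93 and none called (7 past an unadjusted p of 0.05 in limma). The largest were the chemokines Ccl12, Ccl5 and Ccl3, at 2.17, 2.11 and 2.07. The median of the list was 0.51 without arrays 45 and 48, 0.62 without arrays 36, 41 and 50, and 0.47 within p53R172H gliomas. Of 13 ligands that act on myeloid receptors, 10 were positive with a median of 0.64 and none called (5 past an unadjusted p of 0.05). Csf1, the main ligand of Csf1r, had signals of 8.44, 9.29 and 10.50 in microglia-high gliomas and 6.40, 8.19 and 9.80 in microglia-low gliomas, a difference of 1.32 with overlap (adjusted p = 0.231). Il34, its other ligand, which neurons make in the brain, had 4.28, 5.82 and 6.48 against 4.82, 4.91 and 5.13, a difference of 0.82. Cx3cl1, the neuronal ligand of Cx3cr1, had 5.86, 8.67 and 10.90 on the high side and 5.73, 6.26 and 7.06 on the low side (difference 2.40, adjusted p = 0.17). Its cortex signals of 10.86 to 11.92 lay above nearly all gliomas. Tgfb1, which keeps mouse microglia in their homeostatic state, differed by 0.88. Without arrays 36, 41 and 50 the median of the ligands was 0.07.

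Of 11 receptors for those ligands, 9 were positive with a median of 0.77, and Csf3r, the receptor of granulocyte colony-stimulating factor, was called. It had signals of 6.23, 6.50 and 6.84 in microglia-high gliomas and 5.11, 5.55 and 5.61 in microglia-low gliomas, a difference of 1.08 without overlap. The hyaluronan receptor Cd44, the shared cytokine receptor chain Csf2rb and the receptor kinase Tyro3 differed by 1.78, 1.46 and 1.45 and the TGF-beta receptor Tgfbr2 by 0.75, none of them called. Of 9 checkpoint and suppressor genes, 6 were positive and 3 negative, with a median of 0.39, and 2 were called. The lowest difference was -0.67. The median was -0.17 within p53R172H gliomas and 0.0125 without arrays 45 and 48. Vsir, which encodes the checkpoint molecule VISTA of myeloid cells, had 7.98, 8.26 and 8.92 against 5.79, 6.61 and 7.21, a difference of 1.86. Havcr2, which encodes TIM-3 and is carried by microglia as well as T cells, had 5.61, 6.24 and 7.31 against 4.1998, 4.61 and 5.12, a difference of 1.70. Neither overlapped, and Lgals9, a ligand of TIM-3, differed by 1.15 without a call.

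**Figure D4:**
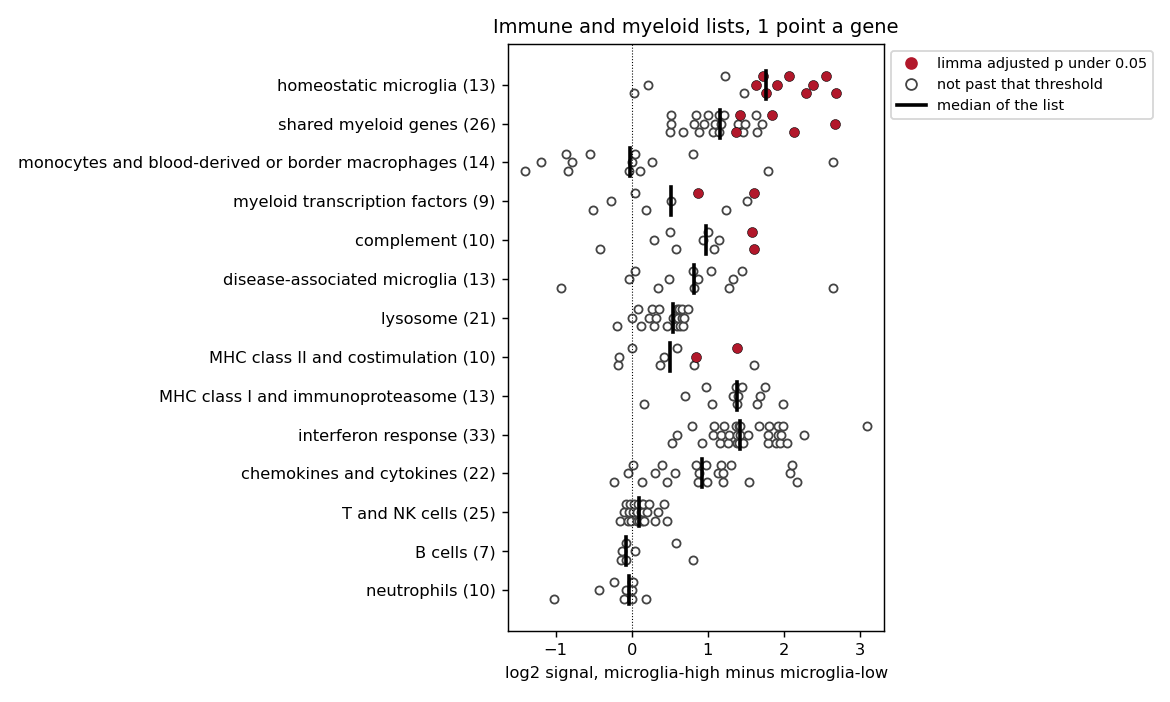
Log2 difference, microglia-high minus microglia-low gliomas (x axis), of each gene in the immune lists, with 1 point per gene and a bar at each list median. The homeostatic list has its median at 1.77, the monocyte and macrophage list at -0.02 and the T and NK cell list at 0.09.

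Lymphocyte and neutrophil genes had medians near 0. Of 25 genes of T and NK cells, 18 were positive with a median of 0.09, none was called and none reached an unadjusted p of 0.05 in limma. For 23 of the 25, both sides had means below the median of the probe sets. The level of the list relative to cortex was -0.11, -0.04 and 0.13 in microglia-high gliomas and -0.26, -0.15 and 0.31 in microglia-low gliomas. The medians were -0.07 for 7 B cell genes and -0.04 for 10 neutrophil genes, of which none was called or reached an unadjusted p of 0.05 in limma, and 0.19 and 0.04 without arrays 36, 41 and 50. Signals this low could hide a difference in lymphocytes.

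Markers of mature oligodendrocytes, astrocytes and mature neurons differed mostly in the same direction as the score. Their part in the results above was not tested, beyond a count of calls with the neuron level as a covariate. Mature oligodendrocyte genes were positive in 14 of 14 cases with a median of 1.54, astrocyte genes in 14 of 15 with a median of 1.35, reactive astrocyte genes in 8 of 8 with a median of 2.04, and mature neuron genes in 19 of 20 with a median of 1.74. None of these genes was called, and an unadjusted p under 0.05 in limma was reached by 9 of the oligodendrocyte, 8 of the astrocyte, 4 of the reactive astrocyte and 6 of the neuron genes. The neuron level relative to cortex was -6.44, -2.60 and -0.56 in microglia-high gliomas and -6.70, -4.86 and -3.25 in microglia-low gliomas. The microglia-high gliomas of arrays 38 and 45 stood nearest to cortex, at -0.56 and -0.65, whereas those of arrays 42 and 64 lay further from it than 5 of the 6 microglia-low gliomas. With the neuron level as a covariate 85 genes were called higher and 10 lower.

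Gfap, the intermediate filament of astrocytes and the most used mark of reactive ones, had signals of 9.85, 10.998 and 11.49 in microglia-high gliomas and 6.20, 8.23 and 9.79 in microglia-low gliomas. The sides did not overlap, and the difference of 2.94 ± 0.77 did not pass the test over all genes (adjusted p = 0.105 in limma). The oncostatin M receptor Osmr, picked out after its values were seen, also stood apart, with 7.81, 8.70 and 10.07 against 6.09, 6.72 and 7.71 (difference 2.17, adjusted p = 0.139). The protease inhibitor Serpina3n and the sphingosine receptor S1pr3, both raised in reactive astrocytes, differed by 2.49 and 2.21. Among general astrocyte genes the water channel Aqp4 differed by 2.55 (adjusted p = 0.108), the bicarbonate transporter Slc4a4 by 2.32 and the folate enzyme Aldh1l1 by 2.14. The myelin genes Mobp, Mbp and Mag differed by 3.42, 2.21 and 1.92, and the neuronal genes Cck, Camk2a and Vsnl1 by 3.68, 3.24 and 3.05.

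The progenitor lists depended on 3 gliomas. The microglia-low gliomas of arrays 36, 41 and 50 had the 3 lowest levels of oligodendrocyte progenitor genes among the 12, at -1.79, -0.12 and -2.74 relative to cortex, against 0.41, 2.30 and 2.84 (lowest, median and highest) in microglia-high gliomas. With them, all 18 progenitor genes were positive with a median of 1.48. Without them 6 were positive and the median was -0.25. Sox10, the lineage factor of these cells, differed by 2.49 with those arrays and by 0.99 without them, and Gpr17 and Sox6 by 2.25 and 1.95 with them and by 0.33 and -0.56 without them. Neuroblast genes showed the opposite, with 13 of 17 negative and a median of -1.08 over all 12 arrays and of 0.15 without the 3. Insm1, Nhlh1 and Igfbpl1, factors and markers of newborn neurons, differed by -2.99, -2.76 and -2.27 with those arrays and by -0.13, 0.15 and 0.51 without them. Because the 3 arrays hold the lowest progenitor levels of the 12, leaving them out shifts the progenitor median down by construction. They also hold the highest neuroblast levels of the low side, so the same holds in reverse there, and both changes are descriptions. Without the 3 arrays the median was 1.80 for homeostatic microglia, 1.47 for astrocytes, 2.23 for neurons and 0.91 for mature oligodendrocytes. Of the 13 homeostatic genes 11 were then positive and 3 called, in a comparison with fewer gliomas, and Tmem119, Gpr34 and Siglech were among those that lost the call.

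Cell cycle genes had a negative difference in 33 of 33 cases, with a median of -0.89 and none called (3 past an unadjusted p of 0.05 in limma). The mitotic kinesins Kif20a and Kif11 differed by -1.52 and -1.37 and the centromere histone Cenpa by -1.34. The level of the list relative to cortex was 1.501, 4.56 and 5.14 in microglia-high gliomas and 4.13, 4.94 and 5.77 in microglia-low gliomas. The value of 1.501 belonged to array 45, which also had the second-highest neuron level of the 12. The list median was -0.70 without arrays 36, 41 and 50, -0.40 without arrays 45 and 48, and -0.44 within p53R172H gliomas.

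**Figure D5:**
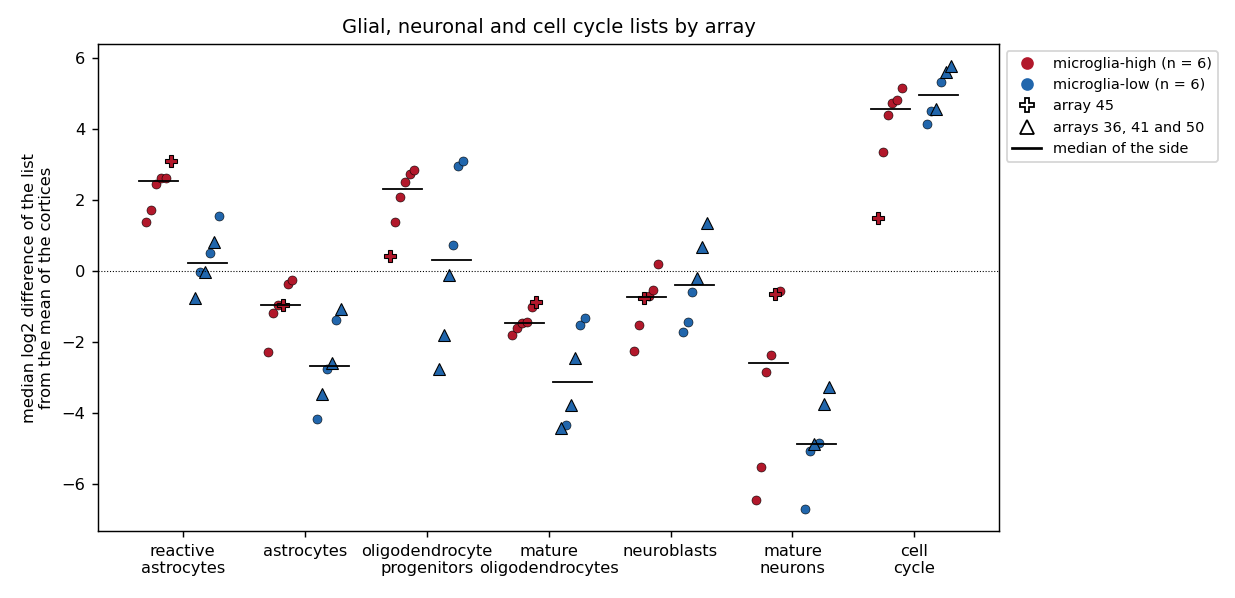
Level of glial, neuronal and cell cycle lists (median log2 difference of a list from the cortex mean, y axis) in each microglia-high and microglia-low glioma, with 1 point per array, bars at the medians, a cross for array 45 and triangles for arrays 36, 41 and 50. The reactive astrocyte level has medians of 2.54 and 0.24, and the oligodendrocyte progenitor level is lowest in the microglia-low gliomas of arrays 36 and 50.

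The 4 genes called lower in microglia-high gliomas were not myeloid. Tedc2, a component of the tubulin complex of centrioles, had signals of 5.68, 6.58 and 6.98 in microglia-high gliomas and 7.01, 7.62 and 8.12 in microglia-low gliomas. The sides stood just apart, with a difference of -1.11 ± 0.23 (adjusted p = 0.0281 in limma). Hinfp, the transcription factor of histone H4 genes, had 5.41, 6.19 and 6.24 against 6.45, 7.03 and 7.46, a difference of -1.01 (adjusted p = 0.0287). The gene 6030458C11Rik had 7.93, 8.35 and 8.58 against 8.64, 8.96 and 9.13, a difference of -0.60 (adjusted p = 0.0492). Mapk8, which encodes the stress kinase JNK1, was picked out after its values were seen. It had 8.09, 8.55 and 8.78 on the high side and 8.74, 9.44 and 10.08 on the low side, which touched (difference -0.87, adjusted p = 0.0315 in limma). Probe sets not used differed by -0.91 to -0.06 for Mapk8, by -0.35 for Hinfp and by -0.99 and -0.31 for 6030458C11Rik. Without arrays 36, 41 and 50 none of the 4 was called, with differences of -0.78 for Tedc2, -1.03 for Hinfp, -0.41 for 6030458C11Rik and -0.41 for Mapk8.

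Of the 70 genes called higher, 23 belonged to at least 1 list and 47 to none. A few of the 47 have roles outside immune cells, and 4 of them, picked out after their values were seen, are given here. Igsf11, an adhesion molecule of the immunoglobulin family found at synapses, had signals of 7.77, 7.95 and 8.47 in microglia-high gliomas and 5.39, 5.84 and 7.84 in microglia-low gliomas (difference 1.70, adjusted p = 0.0347). Mmd2, a membrane protein of the progestin and adipoQ receptor family, had 9.22, 10.62 and 11.04 against 7.25, 8.45 and 10.09 (difference 1.90, adjusted p = 0.0281). Both overlapped, and Mmd2 averaged 10.71 in cortex and 10.31 in the cell lines, close to that of the microglia-high gliomas. Nebl, which encodes the actin-binding protein nebulette, had 9.14, 9.76 and 10.36 against 5.60, 7.73 and 9.22 (difference 2.14, adjusted p = 0.0463), and Fam217b had 8.57, 9.26 and 9.96 against 6.61, 7.69 and 8.63 (difference 1.61, adjusted p = 0.0326). Without arrays 36, 41 and 50 all 4 lost the call, with adjusted p-values of 0.6, 0.475, 0.373 and 0.598. Of the 70, 13 were called in that smaller comparison, in which 13 of all 18190 genes tested were called higher (0.0715%). All 70 kept a positive difference, the smallest being 0.76. The arrays that remained had also given the calls, so a kept sign was likely beforehand and is only a description.

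The difference between the sides was also taken within each genotype. All 70 genes called higher had a positive difference within p53R172H CKO gliomas (2 microglia-high against 3 microglia-low) and within p53null CKO gliomas (4 against 3). These genes were called on the same 12 arrays, so that sign was largely fixed in advance and does not show agreement of the genotypes. The homeostatic list had a median difference of 2.31 in p53R172H gliomas and 1.47 in p53null gliomas. The shared myeloid list had 1.43 in p53R172H gliomas and 1.03 in p53null gliomas, and the neuron list 0.35 in p53R172H gliomas and 2.71 in p53null gliomas. Gpr34 differed by 4.17 in p53R172H gliomas and by 1.47 in p53null gliomas. No gene of 18190 had an interaction of side with genotype at an adjusted p under 0.05 in limma (0%), the smallest adjusted p was 0.982, and 731 reached an unadjusted p of 0.05. In the model of the 12 arrays alone 472 did so and again 0 were called. With 2 to 4 arrays in each cell of that test, a difference between the genotypes is not shown, and equality is not shown either.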

How the data were processed

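Gene expression was measured in 40 mouse samples on Affymetrix Mouse Genome 430 2.0 arrays. The authors corrected background, quantile normalized and summarised the arrays by robust multi-array average, and the deposited values are log2 signals between 2.00 and 14.47 (log base read from the values). No column of the authors' own fold changes was used. Since all arrays were brought to 1 distribution, a change in total RNA is not seen. Of 45101 probe sets, 34945 name 1 gene here, 932 name several and 9160 name none, and 64 are controls. Where several probe sets named a gene, the brightest on average was used. The sides were compared in limma (3.58.1, R 4.3.3) over 3 groups of the 22 gliomas (6 highest, 10 between, 6 lowest), two-sided, with Benjamini-Hochberg adjustment over 18190 genes, and a gene at an adjusted p under 0.05 was called. The scripts were tested on simulated data. Groups came from the sample labels, and the members and the 31 gene lists were chosen with earlier results of these data known. Genes were named by rule: the 10 largest and smallest differences among called genes with sides apart, 3 members of a list with the largest change in the direction of its median, and the homeostatic, ligand and receptor genes. Others are said to be picked after their values were seen. Array numbers come from the labels and identify single gliomas. Alternatives varied the samples, sides, probe sets, normalization, moderation and test. Tables and plots were made with pandas 2.3.3 and matplotlib 3.10.9 (Python 3.11.15).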

Additional observations from a re-analysis of the deposited data

Results flagged for a closer look

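Within each side of 6 gliomas, the highest and lowest values were tested with Dixon's criterion for a sample far from the others (gap over range above 0.625). Of 248 groups of values tested, 16 contained such a glioma, and chance alone marks about 1 in 20 groups. On the microglia-high side, 5 of these genes and 1 list had array 45 as the outlying glioma. Its signals were 7.32 for Gpr17, 4.43 for Kif20a, 3.77 for Kif11, 9.22 for Mmd2 and 4.37 for H2-Oa, each below the other 5, and its macrophage list level was 1.81 against -0.37 to 0.27. Array 64 had signals of 8.86 for Olfml3, 5.52 for Oasl2 and 4.28 for Il34, each below the other 5. Array 60 was highest for P2ry13 at 8.10, and array 42 for the T and NK cell list level at 0.13. On the microglia-low side, array 54 was lowest for Blnk at 4.36 and for Ms4a7 at 8.19. Array 36 was highest for Rassf5 at 6.04 and for Cck at 6.24, against 3.97 to 4.49 in the others. Array 44 had the lowest level of the 3 blood genes, -0.39. The causes were not tested.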

How the results depend on the processing

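Of the 70 genes called higher, 69 were higher under every alternative; the exception, Laptm5, picked out after its values were seen, had a difference of -0.095 once probe sets ending in _x_at or _s_at were left out. All 4 genes called lower were lower throughout. The alternatives reuse the same arrays, so kept directions are no independent support. For the 34 named genes that were called, the call was lost in 241 of 951 values across settings. Among the named genes that were not called, 21 values passed the threshold and 14 changed sign. The counts of genes called higher and lower were 24 and 0 in the model of 12 arrays, 191 and 17 with the score as a continuous covariate, 171 and 48 for 5 against 5 gliomas, 53 and 0 for 8 against 8, and 89 and 44 with sides made from Cx3cr1 and P2ry12. That setting left Cx3cr1 and P2ry12 among the genes tested, on sides they had chosen. Any call of either gene there supports nothing, though it enters these counts and the tally above. The counts were 50 and 2 with array weights, 68 and 2 with a robust trend, 85 and 10 with the neuron list as a covariate, 63 and 2 at a 2-fold minimum, and 13 and 0 without arrays 36, 41 and 50, where fewer samples were compared. The methods' t-test on the 12 arrays gave 1192 and 807 unadjusted and 2 and 0 after Benjamini-Hochberg adjustment. Leaving out single arrays gave 38 to 156 and 0 to 61. The most calls came without array 44, the fewest higher calls without array 50, and 0 lower calls without array 36, 38, 41, 42, 54 or 60.

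List medians moved to 2.31 (homeostatic microglia), 1.42 (disease-associated microglia), -0.17 (checkpoint genes) and -0.40 (hypoxia) within p53R172H gliomas, to -0.66 (macrophages) and 0.0125 (checkpoint genes) without arrays 45 and 48, and to 0.21 (lysosome), 0.068 (ligands), -0.25 (oligodendrocyte progenitors) and 0.15 (neuroblasts) without arrays 36, 41 and 50. The ligand median was 0.38 with the mean of all probe sets. The settings without these arrays and within genotypes were added for lists after seeing the data. Without arrays 36, 41 and 50, Sox6 changed sign to -0.56, Nhlh1 to 0.15, Igfbpl1 to 0.51 and Sall1 to -0.28. Leaving out single arrays, Sall1 ranged between -0.007 and 0.47 and Slc2a5 between -0.0435 and 0.12. Slc2a5 also changed sign to -0.0311 with the continuous score, -0.0025 for 8 against 8, -0.033 with cyclic loess, -0.0019 without arrays 36, 41 and 50, -0.0056 without arrays 45 and 48 and -0.0737 with the neuron covariate. The cause of these changes was not tested. The interaction with genotype had 0 calls in limma in both models, with 731 and 472 genes at an unadjusted p under 0.05.

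The sides rest on 3 genes of the same arrays, 6 gliomas each and 1 array a glioma, and dim genes are compressed. No paired analysis was possible because the replicate numbers only follow the order of the samples. Sides made from Cx3cr1 and P2ry12 stand for the planned score of 3 homeostatic genes, since the third was not analysed here.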

Other observations

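Immediate early genes, the transcription factors and phosphatases that cells switch on within minutes of stimulation or tissue handling, had a positive difference in 11 of 13 cases in microglia-high gliomas, with a median of 1.19. None was called, and 8 of the 13 had an unadjusted p under 0.05 in limma. The level of the list relative to cortex was -0.40, 0.48 and 1.54 (lowest, median and highest) in microglia-high gliomas and -2.24, -0.90 and 0.56 in microglia-low gliomas. The lowest of all was array 50. The median difference was 0.30 without arrays 36, 41 and 50, 0.77 without arrays 45 and 48, and 0.33 within p53R172H gliomas.

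Blood vessel genes had a median difference of 0.25, with 17 of 19 positive, and matrix and mesenchymal glioma genes one of 0.35, with 21 of 30 positive. Without arrays 36, 41 and 50 these medians were 0.16 and 0.06. The matrix level relative to cortex was 0.36, 1.40 and 2.23 in microglia-high gliomas and -0.14, 1.19 and 2.34 in microglia-low gliomas, so the sides covered nearly the same range. Neural stem cell genes had a median of 0.36, with 8 of 13 positive, and hypoxia and glycolysis genes one of 0.23, with 11 of 15 positive. Both changed sign without arrays 36, 41 and 50, to -0.15 with 6 positive for stem cell genes and to -0.34 with 4 positive for hypoxia genes, and the stem cell median was -0.21 within p53null gliomas. None of the genes of these 4 lists was called, and an unadjusted p under 0.05 in limma was reached by 1, 5, 1 and 3 of them, against 14.9% of all genes. Choroid plexus and ependyma genes, 6 in all, had a median of 0.20 at signals below the median of the probe sets.

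A single cell line stood apart in the score that ordered the gliomas. Its score was 5.41, the highest of the 11 lines, and its Ctss signal was 6.84.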
